A study of Mus musculus with 2 samples.

Results

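Nuclear-encoded genes of the mitochondrial respiratory chain were described in mouse neural tube RNA. They were chosen by name only, as protein-coding genes whose symbol begins with Nduf, Uqcr, Atp5 or Cox4 to Cox8, or is Sdha, Sdhb, Sdhc or Sdhd. The annotation held 94 such genes and the gene tables held 93 of them, among 21474 protein-coding genes and 43346 genes in all. A further annotation entry named Atp5o, on chromosome 16, was not analysed here. The 93 genes comprised 7 core and 29 accessory subunits of complex I, 8 Ndufaf assembly factors, the 4 subunits of complex II, 8 of complex III, 11 common subunits of complex IV with 9 tissue-specific or alternative isoforms, and 17 genes of complex V.

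The samples were pools of neural tube, the embryonic precursor of brain and spinal cord, from healthy B6NCrl embryos of both sexes at 11.5 days. Replicate 1 pooled 109 embryos and replicate 2 pooled 88, and no allele, treatment, other age or other tissue was part of the series. The assay was labelled total RNA-seq, on 10 ng of RNA longer than 200 bases with spike-in RNAs added. With 1 group of 2 libraries, every value below is a description of these pools, given for both libraries or as mean ± SD (n = 2), and no test between conditions was possible.

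As background, the respiratory chain sits in the inner mitochondrial membrane. Complexes I and II pass electrons from NADH and succinate to ubiquinone, complex III passes them to cytochrome c, and complex IV passes them to oxygen. Complexes I, III and IV pump protons, and complex V, the ATP synthase, uses the returning protons to make ATP. Apart from complex II, each complex joins a few subunits made from the mitochondrial genome to many made from nuclear genes, and most of the nuclear genes are transcribed in every tissue, while a few complex IV subunits have isoforms known from muscle, lung or testis.

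Replicate 1 held 27638068 expected counts, the estimated reads assigned to genes and spike-ins, and replicate 2 held 29166901. The respiratory chain genes took 343851 and 360888 of them, 1.24% in each library, and 3.49% and 3.45% of the TPM of protein-coding genes. TPM scales all transcripts of a library to the same sum, is corrected for length and lets levels be compared between genes. All 5 neural progenitor and all 5 neuron markers examined were at 1 TPM or more, as were 7 of 8 skeletal muscle and all 5 erythroid markers. Of all protein-coding genes 59.9% reached this level, so it does not test the tissue label. Median levels were 45.7 TPM for neural progenitor, 265 TPM for neuron, 53.9 TPM for skeletal muscle and 1722 TPM for erythroid markers, so other cells were present. In such bulk tissue, fewer cells of a type and less RNA per cell cannot be told apart.

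Of the 93 genes, 90 reached 1 TPM in both libraries, where 59.9% of all protein-coding genes did. Levels were mostly high: 73 members reached 100 TPM in both libraries, against 6.89% of all protein-coding genes and 11.5% of those at 1 TPM or more. The median member stood at 230.8 ± 1.41 TPM, and the median protein-coding gene at 1 TPM or more stood at 19.9 TPM. The 3 members below 1 TPM in a library were Cox8b, Cox7b2 and Cox8c, all alternative isoforms of complex IV subunits. Replicates ranked the 90 detected members almost alike (Spearman's rho 0.996, a description over genes that share the libraries), and the median coefficient of variation between libraries was 2.37%.

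**Figure D1:**
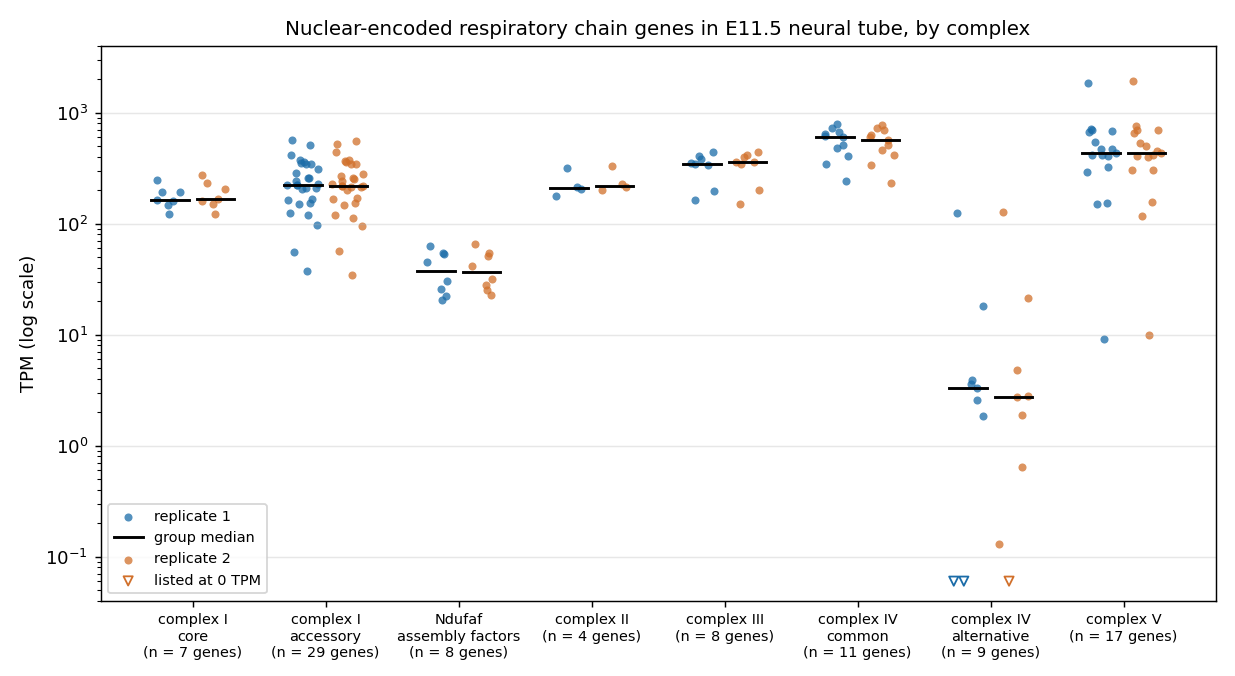
TPM of each of the 93 genes on a log scale, by complex, with replicate 1 in blue and replicate 2 in orange; black bars are group medians and open triangles mark genes listed at 0. Complex IV common subunits have the highest median (582 TPM), the Ndufaf assembly factors (37.1 TPM) lie below all complexes, and the alternative complex IV isoforms (3.02 TPM) lie lowest.

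Promoter sequences of some members are shown first. The table of RefSeq promoters (GRCm38.p6, 250 bases before to 50 after the start) had an entry for 76 members, with 81 promoters; those without an entry included Atp5a1, Atp5mpl, Cox4i1, Cox4i2, Cox6a2, Cox6c, Cox8c, Ndufa2, Ndufa4l2, Ndufaf6, Ndufb9, Ndufs1, Sdhc, Uqcrb, Uqcrc2 and Uqcrq. Printed here are the promoters of the common isoforms Cox6a1 (chr5:115348909-115349208, minus strand), Cox8a (chr19:7217567-7217866, minus strand) and Cox7a2 (chr9:79759804-79760103, minus strand), beside those of the muscle isoforms Cox8b (chr7:140900397-140900696, minus strand) and Cox7a1 (chr7:30183921-30184220, plus strand), because common and muscle isoforms differed widely in level. They read 5′ to 3′ on the gene's strand, and capitals mark matches on either strand to the motif letters given in the next paragraph.
Cox6a1: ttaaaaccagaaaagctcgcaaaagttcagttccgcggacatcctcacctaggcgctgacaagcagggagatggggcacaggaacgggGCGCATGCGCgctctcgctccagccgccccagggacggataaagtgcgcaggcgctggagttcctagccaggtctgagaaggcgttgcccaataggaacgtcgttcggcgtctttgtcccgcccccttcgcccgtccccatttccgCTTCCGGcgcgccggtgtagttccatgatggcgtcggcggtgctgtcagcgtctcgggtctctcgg
Cox8a: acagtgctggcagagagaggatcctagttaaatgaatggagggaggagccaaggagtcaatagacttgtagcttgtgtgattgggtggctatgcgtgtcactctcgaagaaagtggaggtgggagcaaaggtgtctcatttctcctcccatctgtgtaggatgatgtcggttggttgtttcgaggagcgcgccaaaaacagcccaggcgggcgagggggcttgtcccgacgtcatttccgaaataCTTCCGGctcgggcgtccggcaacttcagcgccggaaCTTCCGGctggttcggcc
Cox8b: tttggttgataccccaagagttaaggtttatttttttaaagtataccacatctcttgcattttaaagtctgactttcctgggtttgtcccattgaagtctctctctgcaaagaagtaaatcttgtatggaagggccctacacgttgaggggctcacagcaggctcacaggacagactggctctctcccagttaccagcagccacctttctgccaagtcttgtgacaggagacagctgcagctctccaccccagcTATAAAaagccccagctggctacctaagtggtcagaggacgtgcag
Cox7a2: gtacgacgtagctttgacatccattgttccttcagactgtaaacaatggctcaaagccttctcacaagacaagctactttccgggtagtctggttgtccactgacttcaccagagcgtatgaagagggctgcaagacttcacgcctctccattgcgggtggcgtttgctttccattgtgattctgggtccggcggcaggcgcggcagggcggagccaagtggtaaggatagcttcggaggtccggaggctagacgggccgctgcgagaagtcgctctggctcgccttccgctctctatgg
Cox7a1: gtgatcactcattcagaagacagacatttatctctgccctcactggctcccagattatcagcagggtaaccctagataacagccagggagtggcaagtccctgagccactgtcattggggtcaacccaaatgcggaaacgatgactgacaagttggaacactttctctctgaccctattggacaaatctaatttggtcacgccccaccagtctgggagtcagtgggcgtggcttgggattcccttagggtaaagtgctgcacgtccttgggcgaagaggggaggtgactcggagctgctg

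The motifs searched were those known for factors of respiratory chain genes: the palindrome bound by NRF1, which is the letters GCGCATGC followed by GC, and its shorter form GCGCATGC alone; CCGGAAG, bound by ETS factors such as GABP; AAGATGGC, bound by YY1; TCAAGGTCA, bound by ERR receptors; and TATAAA. Each was searched on both strands. The Cox6a1 window held the NRF1 palindrome and an ETS match, and the Cox8a window held 2 ETS matches. The Cox8b window held TATAAA and none of the other motifs, and the Cox7a2 and Cox7a1 windows held none of them. The printed common genes also had more CpG dinucleotides in the window, 32 in Cox6a1, 19 in Cox8a and 20 in Cox7a2, than Cox8b with 2 and Cox7a1 with 7. This did not hold for all complex IV genes: the common Cox7b had 5 and the alternative Cox7a2l had 19.

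Over the 81 member promoters, 8.64% held the NRF1 palindrome, against 1.98% of 12974 promoters of protein-coding genes at 1 TPM or more and 0.971% of all 32851 promoters of the same length. Its shorter form was in 14.8%, 5.12% and 2.71% of these sets. The YY1 letters were in 13.6% of member promoters, 4.22% of those of detected genes and 2.75% of all. The ETS letters were in 22.2%, 16.7% and 8.86%, a narrower gap to the other detected genes. ERR letters were in 2 member promoters (2.47%), against 0.247% and 0.423%, and TATAAA was in 9.88%, 6.94% and 13.6%. The 5 promoters of alternative isoforms held no NRF1, ETS, YY1 or ERR match, 2 of the 5 held TATAAA, and their median CpG number was 10, against 20 over all member promoters and 20 over those of detected genes. The lack of matches was not particular to them. The common complex IV genes Cox5a, Cox5b, Cox7a2, Cox7b, Cox7c and Ndufa4 held none of these motifs either. Among the complexes, YY1 letters were in 6 of 29 promoters of complex I accessory subunits and in none of the 9 of common complex IV subunits, and ETS letters were in 2 of the 29 and 3 of the 9. A match is a string of letters in a window, not a measured site.

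**Figure D2:**
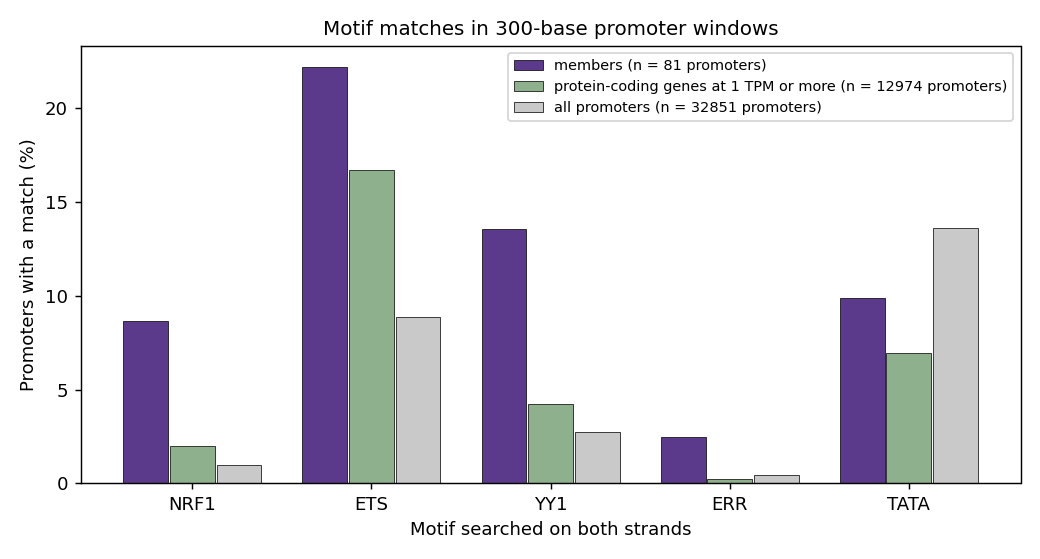
Percent of promoter windows with each motif, for respiratory chain genes (purple), all protein-coding genes at 1 TPM or more in both libraries (green) and all promoters in the table (grey). NRF1 and YY1 letters are in 8.64% and 13.6% of the 81 member promoters, above both other sets, and ETS letters differ less.

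Complex I, the entry point for NADH electrons, had a lower median than complexes III, IV and V in both libraries. Its 36 subunits had a median of 217.45 TPM in replicate 1 and 217.44 TPM in replicate 2, and 33 of them passed 100 TPM in both. The 7 core subunits, some of which carry the flavin and iron-sulfur centres, had a median of 165 ± 4.14 TPM. Ndufv2, an iron-sulfur subunit next to the flavin site, was the highest of them with 248 TPM in replicate 1 and 273 TPM in replicate 2. Ndufs7, which hands electrons to ubiquinone, stood at 192 and 207 TPM. Ndufs1, the large iron-sulfur subunit, was the lowest at 123 and 121 TPM. By mean TPM the core genes spanned 2.13-fold from lowest to highest.

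The 29 accessory subunits, which build the shell around the core, were higher by the median (223 ± 3.29 TPM) and wider in range (15.1-fold). The difference of the medians of log2(TPM + 1) was 0.43 ± 0.06. Ndufc1, a small membrane-arm subunit, was highest at 565 and 519 TPM, followed by Ndufab1, the mitochondrial acyl carrier protein, at 516 and 553 TPM. The order of these neighbours changed between libraries. Ndufb8, a membrane-arm subunit widely used as a marker of assembled complex I, followed at 413 and 445 TPM. Transcripts annotated as other than protein-coding held 271 and 256 TPM of Ndufc1 and 265 and 279 TPM of Ndufab1. They held 23.0 and 19.5 TPM of Ndufb8, so by coding transcripts Ndufb8 stood above both. Ndufb4 was listed lowest, at 37.1 and 34.6 TPM, a value that reads shared with a pseudogene may affect. Over the 36 subunit genes, longer transcripts had lower TPM (Spearman's rho -0.69, across genes of the same libraries), and over the 90 detected members rho was -0.38. Members were short, with a median length of 698 bases against 2587 bases for detected protein-coding genes.

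The 8 Ndufaf genes encode factors that help assemble complex I without staying in it, and all lay below the median subunit. Their median was 37.1 ± 0.894 TPM, 2.54 ± 0.02 lower on the log2(TPM + 1) scale than that of complex I subunits, or 5.81-fold. None reached 100 TPM. Ndufaf2, a relative of the subunit Ndufa12, was highest at 62.4 and 66.0 TPM, with Ndufaf4 at 53.4 and 54.0 TPM and Ndufaf8 at 54.6 and 51.5 TPM. Ndufaf7, a methyltransferase acting on complex I, was lowest by the mean at 22.2 and 22.8 TPM, next to Ndufaf5, a hydroxylase acting on Ndufs7, at 20.5 and 25.04 TPM; the order of this pair changed between libraries. A list of 40 assembly factors of other names had a median of 31.6 ± 1.24 TPM, with 39 at 1 TPM or more. In that list Uqcc2, a complex III factor, was highest at 272 ± 2.73 TPM, followed by the complex IV factors Coa3 at 151 ± 5.39 TPM and Higd2a at 121 ± 5.52 TPM, and Pet117, a complex IV factor, was at 0 counts in both libraries.

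Complex II, which is also the succinate dehydrogenase of the citric acid cycle, is the only complex here with no mitochondrially encoded subunit. Sdhb, the iron-sulfur subunit, was highest with 318 TPM in replicate 1 and 332 TPM in replicate 2. The membrane anchors followed, Sdhc at 215 and 227 TPM and Sdhd at 205 and 215 TPM. Sdha, the flavoprotein that oxidises succinate, was lowest at 178 and 202 TPM. Sdhb was 1.71 ± 0.11 times Sdha. The median, 215 ± 7.66 TPM, differed from that of complex I subunits by -0.01 ± 0.05 on the log2 scale, with opposite signs in the libraries.

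Complex III, the ubiquinol-cytochrome c reductase, had a median of 355 ± 9.90 TPM over 8 genes, 0.70 ± 0.04 above complex I on the log2 scale. By gene TPM its small subunits led: Uqcrq was at 442 and 442 TPM, Uqcr10 at 411 and 401 TPM and Uqcr11 at 385 and 413 TPM. Transcripts annotated as other than protein-coding held 114 and 117 TPM of Uqcrq. They held 15.1 and 17.9 TPM of Uqcr10 and 5.97 and 7.32 TPM of Uqcr11. By coding transcripts Uqcrq therefore stood below both. The core protein gene Uqcrc2 was lowest at 164 and 150 TPM, while its partner Uqcrc1 stood at 342 and 362 TPM, so the core pair was not at equal levels in either library. Uqcrfs1, the Rieske iron-sulfur subunit that moves electrons towards cytochrome c, was at 196 and 199 TPM.

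Complex IV, the cytochrome c oxidase, had the highest median of the complexes for its 11 common subunits, 582 ± 23.6 TPM, 1.42 ± 0.06 above complex I on the log2 scale. Cox6b1, a subunit on the intermembrane side, stood at 787 and 782 TPM. Cox4i1, the subunit that binds adenine nucleotides, was at 728 and 730 TPM. Ndufa4, first described as a complex I subunit and now placed in complex IV, was at 664 and 695 TPM. Cox7b was lowest at 242 and 234 TPM. By gene TPM all 11 exceeded the complex I median in both libraries. Transcripts annotated as other than protein-coding held 134 and 134 TPM of Cox7b. They held 243 and 245 TPM of Cox5b, listed at 410 and 420 TPM. By coding transcripts Cox7b and Cox5b therefore lay below the complex I median, which was 197 TPM on that scale.

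Most tissue-specific isoforms were at or near the detection limit. Cox4i2, known from lung and from low oxygen, was at 3.56 and 2.75 TPM, from 39 and 31 counts, and Cox4i1 exceeded it by 7.86 ± 0.27 on the log2 scale, or 233-fold. The heart and skeletal muscle form Cox6a2 was at 1.85 and 2.79 TPM beside 622 and 636 TPM of Cox6a1, a log2 ratio of 8.11 ± 0.40 or 277-fold. The muscle form Cox7a1 was at 3.90 and 4.84 TPM beside 345 and 339 TPM of Cox7a2, a log2 ratio of 6.30 ± 0.24 or 78.7-fold. In each of these 3 sets the common gene was far above the other in both libraries.

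Cox8b, the muscle form of subunit 8, was the least even between the pools, with 15 counts (3.28 TPM) in replicate 1 and 3 counts (0.64 TPM) in replicate 2. Cox8a, at 599 and 565 TPM, was 183-fold and 884-fold above it, a log2 ratio of 8.65 ± 1.61. Skeletal muscle markers together made up 489 and 408 TPM in replicates 1 and 2, with 7 of 8 at 1 TPM or more and none at 0; Ckm, the muscle creatine kinase, was at 0.275 ± 0.149 TPM. Markers of heart summed to 6.61 and 19.2 TPM, with 2 of 4 at 1 TPM or more in both and none at 0. Cox6a2 had 18 and 28 counts (log2 ratio 0.50, counting error 0.44) and Cox7a1 18 and 23 counts (0.24, counting error 0.45), too few to give a direction between the pools. The part of muscle cells in these levels was not tested.

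Isoforms known from testis gave a mixed picture. Cox6b2 was at 18.0 and 21.5 TPM, from 123 and 156 counts, which was 2.23% and 2.67% of the summed Cox6b level, and Cox6b1 was 39.9-fold higher (log2 ratio 5.32 ± 0.19). Cox7b2 had 0 counts in replicate 1 and 1 count in replicate 2, so the ratio of Cox7b to it, 3725, had a 95% exact Poisson interval from 669 to 147148, which covers counting error only. Cox8c had 0 counts in both libraries, and Cox8a was at least 1276-fold higher than the level that 3 counts per library would give (0.457 and 0.443 TPM). Of 4 testis germ cell markers, Prm1, Tnp1 and Ldhc were at 0 counts in both libraries and none reached 1 TPM in both.

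The remaining alternatives were Ndufa4l2, a low-oxygen relative of Ndufa4, at 2.60 and 1.88 TPM, 307-fold below Ndufa4 (log2 ratio 8.26 ± 0.38), and Cox7a2l. Cox7a2l, a gene linked to the joining of complexes III and IV into supercomplexes, was the only member of the alternative set above 100 TPM. Whether its protein does so in this strain was not tested. It stood at 124 and 127 TPM, with Cox7a2 only 2.73-fold higher (log2 ratio 1.45 ± 0.04). The coding sequences of the compared pairs were 53.2% (Cox8a and Cox8b) to 74.8% (Ndufa4 and Ndufa4l2) identical over aligned bases, and Cox4i1 and Cox4i2 were 66.9% identical.

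**Figure D3:**
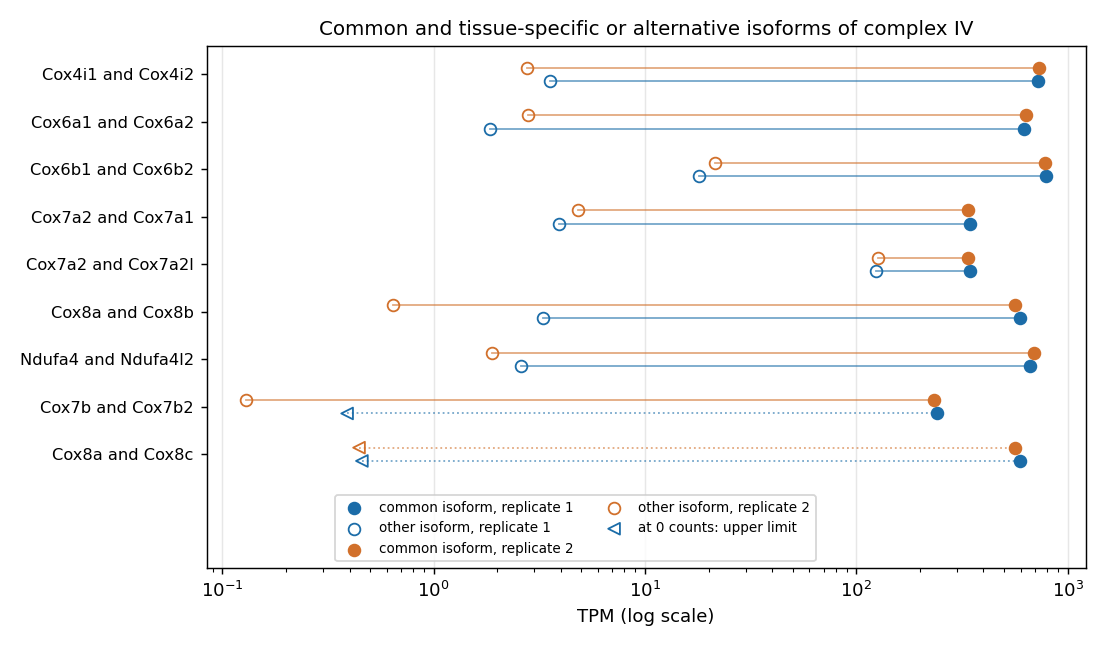
TPM on a log scale of the common isoform (filled) and the other isoform (open) of each complex IV pair, in replicate 1 (blue) and replicate 2 (orange); open triangles are the level of 3 counts for genes at 0 counts. Cox7a2 and Cox7a2l lie closest (2.73-fold), and Cox8b is the least even between libraries (3.28 and 0.64 TPM).

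Complex V had a median of 436 ± 0.354 TPM over 17 genes, 1.00 ± 0.0008 above complex I on the log2 scale, and the widest range of the complexes (199-fold) once the alternative complex IV isoforms are set aside. Atp5b (chr10:128083273-128090391), the catalytic beta subunit, was the highest of all 93 genes with 1871 TPM in replicate 1 and 1936 TPM in replicate 2. Atp5a1, the alpha subunit present in equal number in the enzyme, was at 715 and 755 TPM, so Atp5b exceeded it 2.59 ± 0.04 times. Atp5c1, the central stalk subunit gamma, was at 416 and 405 TPM, and Atp5b exceeded it 4.64 ± 0.20 times. Transcripts annotated as other than protein-coding held 490 and 512 TPM of Atp5b, 7.36 and 12.9 TPM of Atp5a1 and 0 of Atp5c1. By coding transcripts alone both ratios are therefore smaller. Atp5s, coupling factor B, which is not a fixed part of the enzyme, was lowest at 9.21 and 9.97 TPM. The 199-fold range rests on Atp5s. Without it Atp5l was lowest, at 151 and 117 TPM, values that reads shared with pseudogenes may affect. The range was then no longer wider than that of complex I subunits (15.1-fold).

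The c subunits, which form the turning ring, come from 3 genes whose mature protein is known to be the same. Their coding sequences, taken from GENCODE M21 transcripts, are shown for the last 225 bases up to the stop codon, with the bases that differ between any of the genes in capitals.
Atp5g1: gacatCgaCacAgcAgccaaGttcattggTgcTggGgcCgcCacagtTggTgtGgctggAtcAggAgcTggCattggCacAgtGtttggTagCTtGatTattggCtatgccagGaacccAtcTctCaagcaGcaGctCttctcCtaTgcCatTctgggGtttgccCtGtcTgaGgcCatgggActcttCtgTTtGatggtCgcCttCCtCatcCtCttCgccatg
Atp5g2: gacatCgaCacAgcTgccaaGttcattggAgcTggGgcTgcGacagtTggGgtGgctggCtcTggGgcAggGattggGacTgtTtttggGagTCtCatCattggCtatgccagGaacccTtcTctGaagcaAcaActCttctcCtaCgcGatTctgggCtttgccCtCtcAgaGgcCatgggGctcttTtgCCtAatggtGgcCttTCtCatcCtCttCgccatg
Atp5g3: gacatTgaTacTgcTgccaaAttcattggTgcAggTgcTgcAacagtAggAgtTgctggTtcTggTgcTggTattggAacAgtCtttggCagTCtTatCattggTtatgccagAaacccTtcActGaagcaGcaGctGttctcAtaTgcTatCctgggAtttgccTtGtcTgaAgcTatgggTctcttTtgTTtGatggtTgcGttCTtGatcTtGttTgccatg

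Of 57 differing positions, 52 fell on the last base of a codon, 5 on its opening base and 0 on the middle base. In this stretch Atp5g1 and Atp5g2 were 84.9% identical, Atp5g1 and Atp5g3 80.0%, and Atp5g2 and Atp5g3 78.7%, and in the coding bases before it 56.3%, 51.9% and 61.3%. Together they held 1290 ± 3.49 TPM. Atp5g3, at 704 and 694 TPM, gave 54.2 ± 0.436% of this sum, Atp5g1, at 436 and 436 TPM, 33.8 ± 0.119%, and Atp5g2, at 152 and 157 TPM, gave 11.8% and 12.2%. The order of the 3 genes was the same in both libraries. These shares depend on reads shared with pseudogenes: with the pseudogenes described next added to their genes, Atp5g3 gave 41.7 ± 0.195%, Atp5g1 33.6 ± 1.67% and Atp5g2 24.7 ± 1.48%, in the same order.

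Several members share long stretches with processed pseudogenes, and the deposited estimates split reads among them. Of the 93 genes, 33 shared at least 1 window of 100 bases with another annotated gene, 15 with a pseudogene listed in the files, and in 4 (Atp5g2, Ndufab1, Atp5l and Atp5g1) 50% or more of the leading transcript was shared. For 5 members the sum of gene and pseudogenes was more than 1.1 times the gene's own level in both libraries, and these are uncertain; they were singled out after their values were seen. Ndufb4 was at 37.1 and 34.6 TPM, from 322.5 and 330.3 counts. Its relative Ndufb4c on chromosome 15 was listed at 242 and 238 TPM, from 1226.5 and 1244.7 counts. The summed TPM, 276 ± 4.61, lies above the median of the accessory subunits, but each TPM is scaled to the length of its own entry. Such a sum is therefore not the level that a gene would have if all these reads were its own. Atp5l (chr9:44912557-44920742), subunit g, was at 151 and 117 TPM beside 550 and 581 TPM of Gm10221 on chromosome 5.

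Added to its 4 pseudogenes, Atp5l reached 702 ± 1.41 TPM, nearly the same in both libraries although its own estimate was not. Atp5g2 rose from 155 ± 3.67 to 415 ± 27.3 TPM with Gm10175, and Atp5g1 from 436 ± 0.354 to 564 ± 24.6 TPM with Gm10039. Cox7c, a small complex IV subunit, rose from 476 ± 14.1 to 725 ± 4.41 TPM, with Gm12338 as the main addition. Gm12338 held only 374 and 431 counts beside 3621 and 3567 counts of Cox7c, a much smaller part of the counts than of the summed TPM. Between libraries the sum varied less than the gene's own estimate for Atp5l and Cox7c, and more for Atp5g1 and Atp5g2, relative to its level. Whether these reads came from the gene or from a transcribed pseudogene was not tested.

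**Figure D4:**
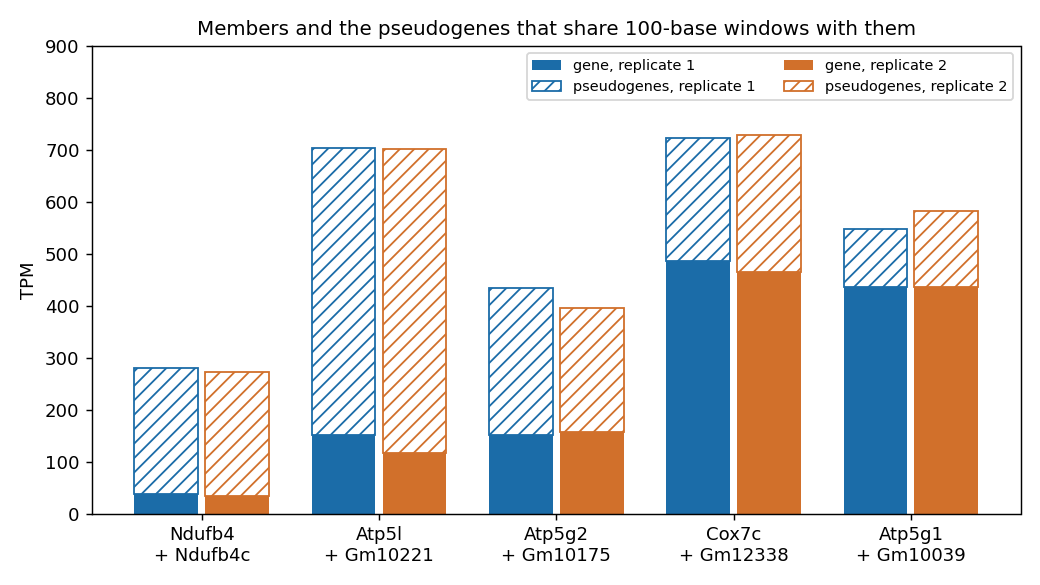
TPM of the 5 members most affected by pseudogenes, with the gene's own estimate as the solid part of each bar and the pseudogenes that share 100-base windows with it as the hatched part, for replicate 1 (blue) and replicate 2 (orange). The pseudogenes hold the larger part for Ndufb4, Atp5l and Atp5g2, and the Atp5l bars differ in their solid part but reach nearly the same height (703 and 701 TPM).

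The 2 pools were close for these genes. Library sizes were scaled with TMM factors, and the log2 ratio of replicate 2 over replicate 1 was taken for the 91 members with 10 counts in a library. A description limit was set at 0.32 on this log2 scale in either direction. Past it were 5 members, 1 higher (Cox6a2) and 4 lower (Cox8b, Ndufa4l2, Atp5l and Cox4i2), where 21.5% of all genes passed, 10.2% higher and 11.2% lower. Of these 5 only Atp5l had more than 100 counts on average. Among the 86 members at that depth it was the only such member, where 6.76% of all genes passed. Low-count genes vary more by counting alone. The limit of 100 counts lessens this but does not match depth. Every common complex IV gene, for instance, had at least 2551 counts in each library. The lower share among members was therefore not separated from their depth.

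Atp5l fell by 0.42 on the log2 scale, with a counting error of 0.07, from 1086 to 865 counts, and with its pseudogenes by 0.07. The next lowest ratios at 100 counts or more were small: Ndufa2 at -0.18, Uqcrc2 at -0.17, Ndufc1 at -0.15 and Ndufb3 at -0.14, each with a counting error between 0.03 and 0.06. Among the highest were Cox6b2 at 0.25, with a counting error of 0.17, Ndufaf5 at 0.21 and 0.10, Sdha at 0.17 and 0.02, and Ndufaf6 at 0.08 and 0.11. Thus Sdha, from 7910 to 9450 counts, differed by more than counting error, while Ndufaf6 and Cox6b2 were within about 1.5 times it.

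Most shifts between the pools were small. Of 36 complex I subunits 29 were lower in replicate 2 (median -0.05) and of 11 common complex IV subunits 10 were lower (median -0.05). All 4 complex II genes were higher (median 0.02), but only Sdha by more than its counting error. Sdhb, Sdhc and Sdhd had ratios of 0.02, 0.01 and 0.02, each with a counting error of 0.03. Complex V was split, with 8 higher and 9 lower, as were the complex I core genes with 3 and 4, while 6 of 8 complex III genes were lower. Of all genes 50.4% were lower. The split for complexes I and IV depended on scaling: by the deposited TPM values 18 of 36 and 7 of 11 were lower, where 40.7% of all genes were, and by spike-in totals, which raise the median of all genes to 0.20, none were, where 17.9% of all genes were. With 1 library on each side these are differences between 2 pools, and marker lists of several cell types differed as well. Their median log2 ratios were 0.15 for 5 neuron, 0.02 for 5 neural progenitor, -0.04 for 5 erythroid, -0.31 for 7 skeletal muscle, -0.22 for 4 pericyte and smooth muscle, -0.87 for 3 liver and 0.88 for 4 heart markers with a ratio. Their part in the shifts was not tested.

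**Figure D5:**
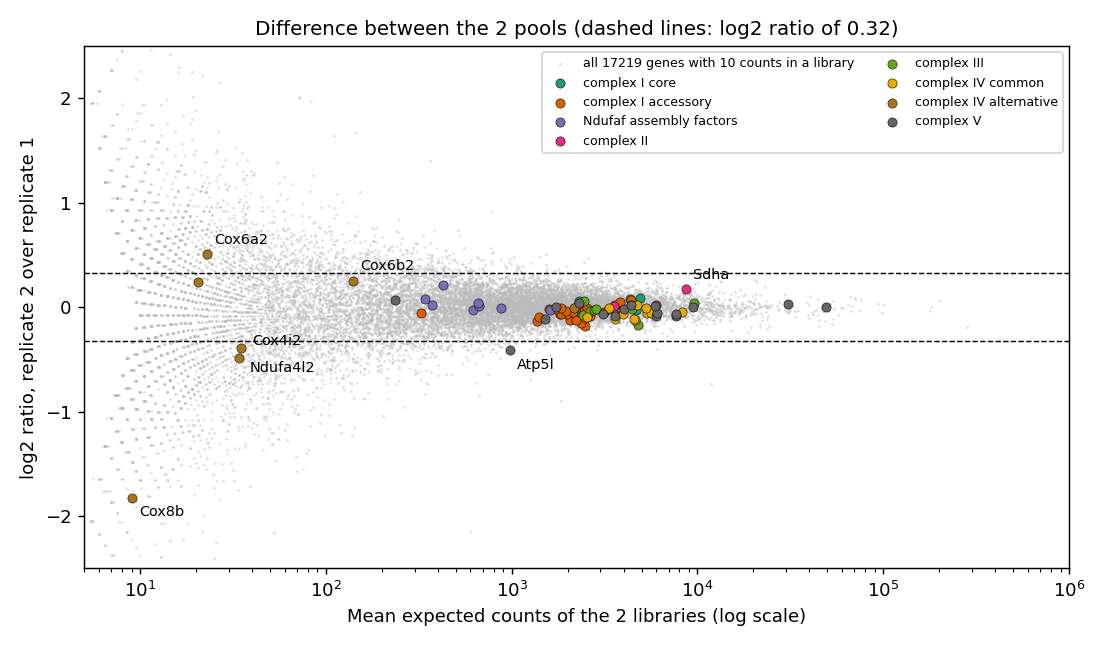
The log2 ratio of replicate 2 over replicate 1 against mean expected counts (log scale) for 17219 genes in grey and 91 respiratory chain genes in colour by complex; dashed lines mark a log2 ratio of 0.32 in either direction and the y axis is limited to 2.5 in each direction. Members with many counts lie near 0, Atp5l is the only one past the lower line above 100 counts, and the others past a line have few counts.

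Transcript shares within members were compared between the libraries. Of 92 members with a count, 29 had 1 annotated transcript and 63 had several. In all 63 the leading transcript did not change between libraries. At 5 TPM or more this held for 62 of 62 members, against 92.7% of 7821 protein-coding genes with several transcripts, and the median share of the leading transcript was 90.5% for the members and 71.4% for all these genes. In some members this share differed between libraries, as in Ndufv1 (46.7% and 31.5%) and Ndufs3 (86.1% and 70.7%). In 9 members (14.5%, against 7.79% of all) the leading transcript was annotated as other than protein-coding. For Ndufa5, a complex I subunit, it was a processed transcript of 453 bases that took 94.9% and 94.0% of the gene's TPM. For Atp5j and Cox7b it was a retained-intron transcript with 63.0% and 60.2%, and with 46.4% and 51.0%. The 9 were Atp5f1, Atp5j, Cox5b, Cox7b, Ndufa10, Ndufa5, Ndufaf4, Ndufaf8 and Ndufb4, and their gene levels therefore exceed the level of their coding transcripts. Some members with a protein-coding leading transcript, such as Ndufc1, Ndufab1 and Atp5b, also held much TPM in transcripts annotated otherwise.

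Atp5c1 and Ndufv3 have alternative exons. In Atp5c1 a 37-base exon (chr2:10056770-10056806, GRCm38, minus strand) near the end of the coding sequence is known to be left out in heart and skeletal muscle. Compared by transcript, those with it held 376 and 373 TPM and that without it 34.9 and 26.7 TPM, so 91.5% and 93.3% of the TPM of these transcripts included the exon. The junction in the leading transcript, Atp5c1-203, is shown with the 30 transcript bases before the exon in lower case and the bases of the 37-base exon up to and including its stop codon in capitals.
Atp5c1: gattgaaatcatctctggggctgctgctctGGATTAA

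Ndufv3, an accessory subunit of the NADH-binding part of complex I, has a short form and a long form that adds an exon of 1092 bases (chr17:31527310-31528401, plus strand). The short transcript Ndufv3-202 took 87.9% and 88.2% of the gene's TPM and the long transcript Ndufv3-201 took 11.1% and 11.2%. Both shares differed by less than 1 percentage point between libraries. The deposited estimates divide the reads that both forms share.

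The members lie on 19 chromosomes, with at most 9 on any of them. A feature that the choice by name did not use was a close divergent neighbour: 23 of 93 members (24.7%) had a protein-coding gene starting on the opposite strand within 1000 bases upstream without overlap, against 9.91% of 12868 detected protein-coding genes. The starts of Ndufa7 and the ribosomal protein gene Rps28 were 10 bases apart, those of Sdha and Ccdc127 29 bases and those of Sdhd and the mitochondrial import gene Timm8b 98 bases. Some members overlap a gene on the other strand, such as Cox4i1 with Emc8 (223 and 214 TPM) over 352 bases and Ndufaf2 with Smim15 (46.0 and 46.0 TPM) over 4727 bases. No source used here says whether strand was kept, so reads from stretches shared by both transcripts, as in Cox4i1 and Emc8, cannot be told apart.

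The nuclear subunits work beside mitochondrially encoded ones, whose medians in the same libraries were 345 ± 52.8 TPM for 7 complex I genes, 2578 ± 2.77 TPM for mt-Cytb of complex III, 1455 ± 65.5 TPM for 3 complex IV genes and 5189 ± 90.4 TPM for the complex V genes mt-Atp6 (5568 ± 80.4 TPM) and mt-Atp8 (4810.4 ± 100.4 TPM). They exceeded the nuclear medians 1.76 and 1.41 times in complex I, 7.41 and 7.12 times in complex III, 2.51 and 2.49 times in complex IV and 12.1 and 11.7 times in complex V. All 13 regulators of respiratory chain genes examined reached 1 TPM, with a median of 25.6 ± 2.98 TPM. Gabpb1, a subunit of the ETS factor GABP, was at 64.2 ± 0.375 TPM, Tfam, which packages and transcribes mitochondrial DNA, at 60.5 ± 2.96 TPM and Nrf1, the factor of the palindrome printed above, at 59.3 ± 2.28 TPM. The coactivator Ppargc1b was lowest at 1.07 ± 0.0354 TPM.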

How the data were processed

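Total RNA-seq of neural tube was analysed in 2 libraries, biological replicates 1 and 2 of 1 group, with 27638068 and 29166901 expected counts. Expected counts and TPM per gene and per transcript, and each transcript's share of its gene as a percent, were deposited by the authors. They were made on mm10 with GENCODE M4, from transcriptome alignments, per the deposited file descriptions. For the aligner, quantifier and strandedness: not given in the sources used here. TPM includes spike-ins (13.2% and 11.8%), and effective lengths are 99 bases below lengths, which raises the TPM of short genes. A posterior mean estimate in the same files served as an alternative.

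Symbols, types, coordinates and transcript sequences came from GENCODE M21 (GRCm38), joined on the identifier without version; 42462 of 43346 genes matched. Levels are TPM, complexes were compared by medians of log2(TPM + 1), and isoforms by log2 ratios of TPM. A gene was called detected at 1 TPM in both libraries. Expected counts were rounded for edgeR 4.0.16 (R 4.3.3), which gave TMM factors and, with a prior count of 2, log2 ratios for genes reaching 10 counts in a library. Size factors from DESeq2 1.42.0 were an alternative. The step was tested on simulated data. The limit of 0.32 on the log2 scale is a description, since 1 library stood on each side. Counting errors and intervals leave out all other error, and PCR reads that lack molecular identifiers are not independent. Shared sequence was sought in windows of 100 bases with Python 3.11.15, and coding sequences were aligned with Biopython 1.88.

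The members and lists were chosen with earlier results of these data known. The text names, in each list of respiratory chain genes, assembly factors and regulators, the 3 highest and the lowest gene by mean TPM, members below 1 TPM, the isoform sets, complex II, the 5 largest ratios in each direction at 100 counts or more, and Ndufv3 and Atp5c1. Other names, such as Uqcrc1, Uqcrfs1 and the genes with pseudogenes, unusual leading transcripts or close neighbours, were chosen after their values were seen. A gene that this rule names is not reported here. Alternatives changed the estimate, length, scaling, prior count, filter, thresholds and replicate; adding pseudogenes and keeping only protein-coding transcripts were chosen after seeing the data.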

Additional observations from a re-analysis of the deposited data

How the results depend on the processing

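The order of the complexes by median level depended little on the processing, apart from complex II against complex I. That log2 difference turned positive with TPM recomputed on full length (0.12), with protein-coding transcripts only (0.13), without members of 50% or more shared sequence (0.0072) and without replicate 1 (0.0214), and lay between -0.05 and 0.02 when a replicate was left out. When TPM was rescaled to protein-coding genes, complex medians became 276 TPM for complex I, 47.1 for Ndufaf factors, 273 for II, 451 for III, 739 for common IV and 553 for V. On full length they were 201 for I, 333 for III, 530.0 for IV and 415 for V. By the posterior mean they were 211 for I and 422 for V. With pseudogenes added they were 222 for I, 622 for IV and 489 for V. With protein-coding transcripts only they were 197 for I, 25.1 for Ndufaf factors, 341 for III and 410.3 for V.

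Log2 differences from complex I kept their sign for III, IV, V and the Ndufaf factors. They became 0.79 for III, 1.56 for IV, 1.05 for V and -2.92 for Ndufaf factors with protein-coding transcripts only, and 1.48, 1.14 and -2.57 for IV, V and Ndufaf factors with pseudogenes added. On full length V was 1.05 and Ndufaf factors -2.41, and accessory over core subunits of complex I was 0.33. Complex V was 0.998 by the posterior mean and 1.14 without members of shared sequence. The Cox7a2 ratios on full length were 6.55 over Cox7a1 and 1.39 over Cox7a2l. The number of members past the fold limit went from 5 to 1 with 100 counts or more on average, and to 1 at 1.5-fold. The cause of these moves was not tested. Leaving out a replicate gave no value for the agreement of leading transcripts or for the ratio between replicates, which need both libraries. No paired analysis was possible because the series has 1 group. Depth limits Cox7b2, Cox8b and Cox8c, which rest on 15 counts or fewer, and with 2 libraries each SD is itself imprecise.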

Other observations

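Values of further genes that the choice by name left out follow. Cyc1, the cytochrome c1 subunit of complex III that the choice by name left out, stood at 289 and 331 TPM, close to the complex III median. Cycs, somatic cytochrome c, was at 56.4 and 57.6 TPM, and its testis form Cyct had 0 counts in both libraries. Atpif1, the inhibitor of ATP synthase, was at 818 and 818 TPM and Usmg5, a small ATP synthase subunit, at 945 and 907 TPM, both above the complex V median. Among regulators, the coactivator Ppargc1a was at 1.78 and 2.40 TPM and the receptor Esrra at 2.67 and 2.85 TPM, far below Nrf1, Gabpb1 and Tfam in both libraries.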
